A study of Mus musculus with 12 samples.

Results

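The heat shock chaperone genes described here are 10 named genes of mouse liver: Hspa1a, Hspa1b, Hsph1, Dnajb1, Hspa8, St13, Hsp90aa1, Hsp90ab1, Hspd1 and Hspe1. They were listed by what their proteins do, as cytosolic and mitochondrial heat shock chaperones and their helpers, some inducible and some constitutive. They were chosen by these roles and with earlier values of the same libraries known, namely counts, CPM (counts scaled to library size), heavy-over-light ratios and, for Hspd1 and St13, the diet difference in heavy pools. Their values below are therefore descriptions, given without p-values of their own. Counts of members called, by either tool or at an unadjusted p, are descriptions too. They cannot serve as a test of the members, since the members were chosen with these values known. The 10 genes are 10 of 27179 gene IDs in the count tables, and all 10 were among the 10555 genes with enough counts to be tested.

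The study sequenced RNA from sucrose gradients of 6 livers of male C57BL/6 mice. Each liver gave a heavy polysome pool and a light polysome pool, which makes 12 libraries. Both keto animals (keto 1 and keto 2) were wild type and ate a ketogenic diet for 24 h. The animal called S209A here was chow-fed and homozygous for eIF4E S209A, a form of the cap-binding protein eIF4E whose regulatory serine is replaced by alanine. The 3 chow animals (chow 1, chow 2 and chow 3) were wild type and chow-fed. All animals had food available, and the single S209A animal has no replicate. The design sets the heavy pool against the light pool, the ketogenic diet against chow, and the mutant against wild type.

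Heat shock proteins bind unfolded or partly folded proteins and use ATP to let them fold. Cells keep a constitutive set for daily folding and add an inducible set when the transcription factor HSF1 binds heat shock elements, which are inverted repeats of the unit GAA, in front of the genes. In the cytosol J-proteins such as Dnajb1 pass clients to HSP70 proteins (Hspa1a, Hspa1b, Hspa8), Hsph1 exchanges their nucleotide and St13 stabilises their client-bound state. The HSP90 proteins (Hsp90aa1, Hsp90ab1) finish the folding of kinases and receptors, and in mitochondria the HSP60 barrel (Hspd1) works with its HSP10 lid (Hspe1). An mRNA found deep in a gradient carries many ribosomes, so heavy over light is commonly read as a measure of ribosome load.

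Upstream sequences are shown because the inducible HSP70 genes are near copies and because the members differ in how many inverted repeats of GAA their windows hold. Windows of 250 bases upstream of annotated starts were taken from RefSeq on build GRCm38.p6 for 6 of the 10 members. Hspa1a (gene ID 193740) lies at chr17:34969359-34972156 and Hspa1b (gene ID 15511) at chr17:34956429-34959238. Their upstream windows, chr17:34972157-34972406 and chr17:34959239-34959488 on the minus strand, differ at 3 of 250 positions (98.8% identity). Capitals mark the letters of GAANNTTC or TTCNNGAA, the inverted repeats of GAA, searched on both strands with overlaps counted.
Hspa1a: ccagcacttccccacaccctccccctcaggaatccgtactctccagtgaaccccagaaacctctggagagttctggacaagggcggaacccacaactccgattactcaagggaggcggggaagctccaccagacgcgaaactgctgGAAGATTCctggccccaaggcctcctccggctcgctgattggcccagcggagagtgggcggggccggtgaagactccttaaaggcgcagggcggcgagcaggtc
Hspa1b: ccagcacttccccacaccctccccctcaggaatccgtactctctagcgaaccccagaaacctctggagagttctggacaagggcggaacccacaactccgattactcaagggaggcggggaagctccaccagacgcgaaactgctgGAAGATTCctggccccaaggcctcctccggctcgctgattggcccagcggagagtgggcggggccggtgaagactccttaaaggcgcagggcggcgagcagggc

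For Hsph1 and Hspe1 only the stretch around the match is shown, at chr5:149636352-149636379 on the minus strand and chr1:55088054-55088081 on the plus strand. Hspd1 (chr1:55077833-55088243) and Hspe1 (chr1:55088148-55091317) lie head to head and their annotated spans overlap by 96 bases, so the Hspe1 stretch is also inside the Hspd1 span and is read on the other strand in front of the second annotated Hspd1 start.
Hsph1: ggtagaatctTTCTCGAAggctcgagaa
Hspe1: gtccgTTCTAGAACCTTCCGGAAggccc
Hspd1: gggccTTCCGGAAGGTTCTAGAAcggac

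The Hspe1 stretch held 3 matches of the short repeat and 2 of its extended form, in which another spacer NN and a further GAA or TTC follow in alternation. The windows of Hspa1a, Hspa1b and Hsph1 each held 1 short match and 0 extended ones. Both Dnajb1 windows, and the window of the first Hspd1 start, held 0 matches of these letters. Of all 32851 windows of this length, 12.8% held the short repeat and 0.47% the extended one. A match describes the letters only, and nothing about HSF1 follows from it or from its absence.

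The libraries held 3341046 to 13263355 counts, of which 4.09% to 39.2% fell on nuclear protein-coding genes and 12.1% to 74.2% on mitochondrial ribosomal RNA. A single unnamed gene ID took 15.9% (keto 2 heavy pool) to 59.1% (chow 1 heavy pool) of the counts. All 10 hepatocyte markers were tested and summed to 5381 to 13900 CPM, while 0 of 7 lymphocyte markers were tested. The file headers give different aligners: Bowtie2 for chow 1 and chow 2, HISAT2 for chow 3 and S209A, and none named for the keto animals. In the light pools mitochondrial ribosomal RNA took 12.1% of counts in S209A and 13.5% in chow 3, and 37.6% to 58.2% in the other animals. Values below are therefore given per animal, and CPM were scaled by TMM, edgeR's trimmed mean of M-values. In whole liver, fewer cells of a type and less RNA per cell cannot be told apart.

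The inducible HSP70 mRNAs were nearly missing from 2 heavy pools and present in every other library. Hspa1b had 246 and 0 counts in the keto heavy pools, 6 in the S209A heavy pool, and 130, 96 and 317 in the chow heavy pools. In the light pools Hspa1b had 126 and 55 counts in keto, 152 in S209A, and 50, 40 and 345 in chow. The heavy pools of keto 2 and S209A were thus far below those of the other 4 animals, while their light pools lay inside the range of the others.

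Hspa1a was low in the same heavy pools and had fewer counts throughout. Its heavy pools had 69 and 0 counts in keto, 2 in S209A, and 63, 53 and 37 in chow. Its light pools had 58 and 28 counts in keto, 12 in S209A, and 22, 20 and 18 in chow. The S209A light pool had the fewest Hspa1a counts of the light pools, and 0 counts in the keto 2 heavy pool allow up to 3 counts, or 0.580 CPM.

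Because reads of near-identical copies can be split between them by an aligner, the sum of Hspa1a and Hspa1b was also followed. The log2 ratio of Hspa1a over Hspa1b counts (1 added to each) was -1.82 to -0.85 in chow 1, chow 2 and the keto libraries with counts. The same ratio was -3.56 in the S209A light pool, and -3.07 and -4.19 in the heavy and light pools of chow 3, while the S209A heavy pool had 2 and 6 counts. The split between the copies thus differed between the animals with HISAT2 headers and the others, and values of either copy alone are uncertain.

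The summed heavy-pool level was 49.5 and 0 CPM in keto, 0.823 CPM in S209A, and 47.9, 21.6 and 25.8 CPM in chow. The light-pool sum was 35.1 and 29.3 CPM in keto, 21.1 CPM in S209A, and 12.5, 8.62 and 28.3 CPM in chow. Set against a floor of 3 counts for the library, the sum in keto 2 was at least 50.6-fold lower in the heavy than in the light pool. It was also at least 37.3-fold lower in the keto 2 heavy pool than in the lowest chow heavy pool. In S209A the light pool held 25.6 times the heavy pool's summed CPM, with an exact 95% interval of 12.7 to 60.3 that covers counting error only, as reads are not independent molecules.

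Few genes with at least 50 counts had so low a heavy-over-light value in those animals. Among the 3234 genes with at least 50 counts in keto 2, 0.0309% had a heavy-over-light value as low as that of Hspa1b or lower, Hspa1b included. Among 5400 such genes in S209A the share was 0.037%. Hspa1b and these animals were singled out for these low values, so both shares are descriptions and no test. The keto 2 value rests on 0 heavy counts with 1 added, so its size follows from the 55 light counts. S209A and chow 3, which share header wording but not genotype, had 8 and 354 summed counts in the heavy pool. Keto 1 and keto 2, which share wording and diet, had 315 and 0 summed counts in the heavy pool. The cause of these differences was not tested.

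**Figure D1:**
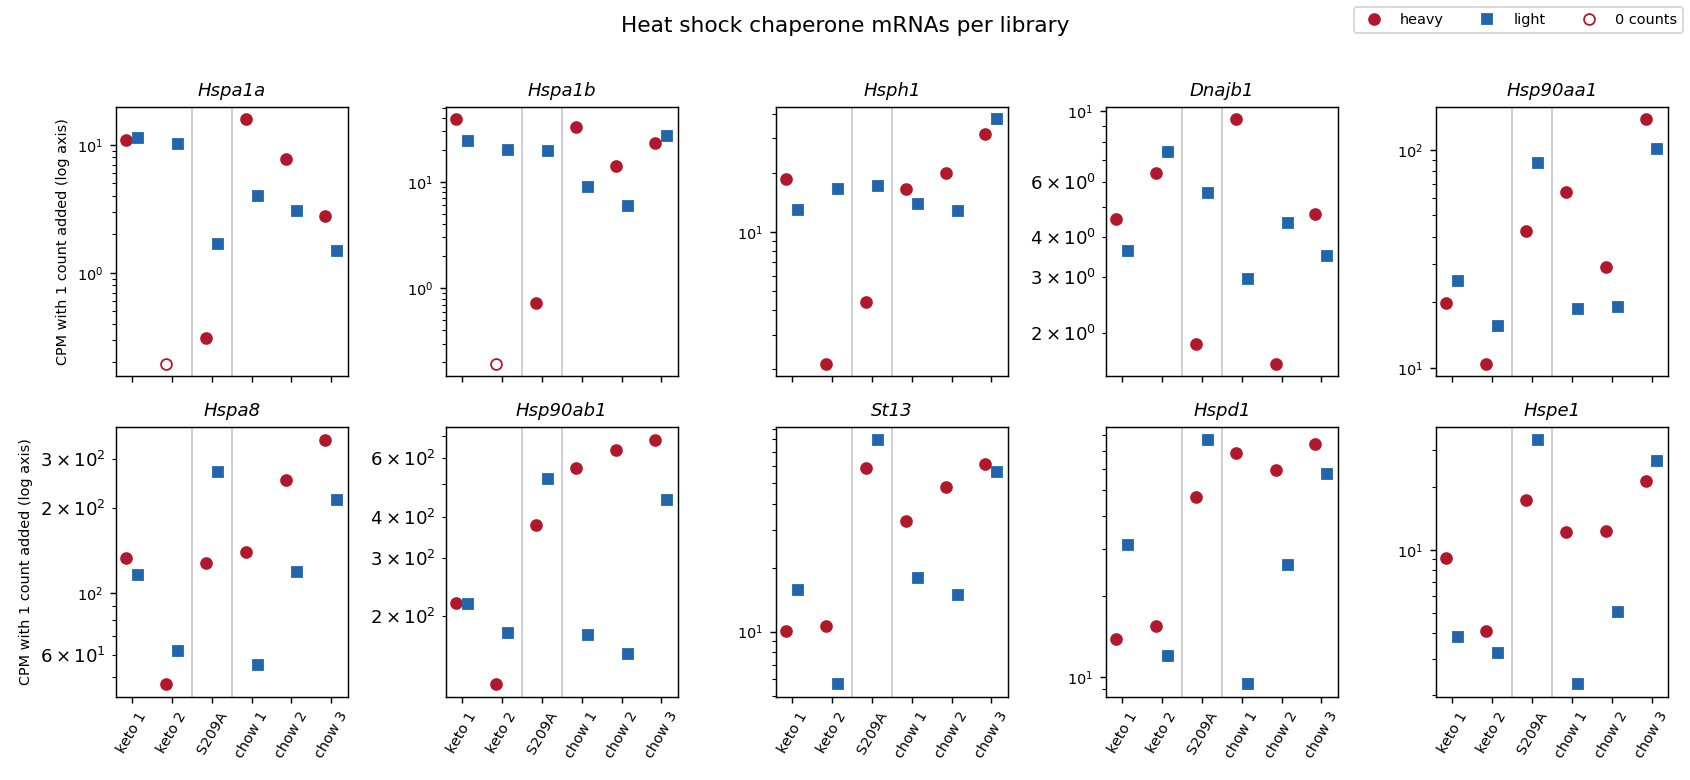
CPM with 1 count added (log axis, a scale of its own for each gene) of the 10 chaperone mRNAs in each animal, with red circles for heavy pools, blue squares for light pools and open circles for 0 counts. Hspa1a and Hspa1b are at 0 counts in the keto 2 heavy pool and at 2 and 6 counts in the S209A heavy pool, and Hsph1 is lowest in the same pools, at 1.93 and 4.32 CPM.

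Hsph1, the HSP110 nucleotide exchange factor of HSP70, was the third member that was low in those heavy pools. Hsph1 had 18.6 and 1.93 CPM in the keto heavy pools, 4.32 CPM in the S209A heavy pool, and 16.4, 19.7 and 31.6 CPM in the chow heavy pools. Its light pools had 12.8 and 16.3 CPM in keto, 17.0 CPM in S209A, and 13.7, 12.65 and 37.4 CPM in chow. It had 10 counts in the keto 2 heavy pool, where Hspa1b had 0, and 42 in the S209A heavy pool, where Hspa1b had 6. The light pool of S209A held 3.93 times the heavy pool's CPM (exact 95% interval 2.76 to 5.70, counting error only).

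Dnajb1, the main inducible J-protein of the cytosol, rested on only 10 to 64 counts per library and showed no common order. It had 4.40 and 6.18 CPM in the keto heavy pools, 1.75 CPM in the S209A heavy pool, and 9.19, 1.45 and 4.67 CPM in the chow heavy pools. Dnajb1 light pools had 3.43 and 7.07 CPM in keto, 5.40 CPM in S209A, and 2.78, 4.31 and 3.43 CPM in chow. The keto and chow ranges overlapped in both pools, and chow 2 was lowest of all heavy pools.

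Among heavy pools, the constitutive HSP70 mRNA Hspa8 was highest in chow. Hspa8 had 133 and 46.9 CPM in the keto heavy pools, 127 CPM in the S209A heavy pool, and 139.5, 252 and 352 CPM in the chow heavy pools. Hspa8 light pools had 116 and 61.9 CPM in keto, 270 CPM in S209A, and 55.1, 118 and 214 CPM in chow. The keto and S209A heavy pools all lay below the lowest chow heavy pool, with keto 1 and chow 1 close together, and the S209A light pool was the highest light pool.

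St13, the HSP70-interacting protein Hip, separated the diets more widely in the heavy pool. St13 had 9.91 and 10.4 CPM in the keto heavy pools, 58.6 CPM in the S209A heavy pool, and 32.8, 47.5 and 61.1 CPM in the chow heavy pools. Its light pools had 15.4 and 5.30 CPM in keto, 79.8 CPM in S209A, and 17.7, 14.7 and 56.3 CPM in chow. In the heavy pool S209A lay within the chow range and both keto animals below it, while the light pools of the diets overlapped.

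Of the HSP90 mRNAs, Hsp90aa1 encodes the stress-inducible form and Hsp90ab1 the constitutive one. Hsp90aa1 had 19.7 and 10.2 CPM in the keto heavy pools, 42.3 CPM in the S209A heavy pool, and 64.1, 29.0 and 138 CPM in the chow heavy pools. Hsp90aa1 light pools had 24.8 and 15.2 CPM in keto, 86.5 CPM in S209A, and 18.4, 19.0 and 101 CPM in chow. Chow 3 was highest in both pools, and both keto heavy pools were below every chow heavy pool.

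Hsp90ab1 had the narrowest chow heavy values of the cytosolic members. Hsp90ab1 had 219.7 and 125 CPM in the keto heavy pools, 377 CPM in the S209A heavy pool, and 559, 634 and 683 CPM in the chow heavy pools. Its light pools had 218 and 178.5 CPM in keto, 517 CPM in S209A, and 176, 154 and 448 CPM in chow. Heavy and light were nearly equal in keto 1, whereas in chow 1 and chow 2 the heavy pool was far above the light pool.

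The mitochondrial chaperonin subunit Hspd1 was well separated between the diets in the heavy pool. Hspd1 had 13.7 and 15.3 CPM in the keto heavy pools, 47.0 CPM in the S209A heavy pool, and 68.3, 59.1 and 74.1 CPM in the chow heavy pools. Light pools had 31.1 and 11.7 CPM in keto, 77.0 CPM in S209A, and 9.22, 26.0 and 57.2 CPM in chow. Its mean was 14.5 ± 1.12 CPM in keto heavy pools (SD, n = 2) and 67.2 ± 7.56 CPM in chow heavy pools (SD, n = 3), and the light pools overlapped.

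Hspe1, the lid of the same barrel, had 8.96 and 3.86 CPM in the keto heavy pools, 17.3 CPM in the S209A heavy pool, and 11.9, 12.2 and 21.3 CPM in the chow heavy pools. Its light pools had 3.62 and 2.83 CPM in keto, 33.7 CPM in S209A, and 2.09, 4.89 and 26.6 CPM in chow. The keto light pools rested on 19 and 8 counts, and chow 3 and S209A were far above the other light pools.

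Heavy over light was then compared within animals, on the log2 scale of CPM with 1 count added. In chow animals all 10 members had a fitted value above 0, where 45.3% of all genes did. The members' median was 1.001 beside -0.09 over all genes (0.65 without chow 1, with 9 members above 0). The 10 hepatocyte markers were above 0 as well, with a median of 0.86. Hspd1 averaged 1.47 ± 1.27, Hsp90ab1 1.44 ± 0.74 and Hspa8 1.05 ± 0.31 over the chow animals (SD, n = 3). The value was above 0 in all 3 chow animals for 6 members (Hspa1a, Hspa8, Hsp90aa1, Hsp90ab1, Hspd1 and St13), as it was for 13.3% of all genes.

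Chow 3 had the lowest value of the chow animals for every member except Dnajb1. Hspd1 had 2.87, 1.18 and 0.37 in chow 1, chow 2 and chow 3. Hsp90ab1 had 1.67, 2.04 and 0.61. Hspa8 was the steadiest of these, at 1.34, 1.09 and 0.72.

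By edgeR's quasi-likelihood test with Benjamini-Hochberg adjustment, 0 of the 10 members were called in chow animals, where 0.227% of genes were called. At an unadjusted p under 0.05 the count was 8 members, and 6.96% of genes. DESeq2 called 3 members (Hspd1, Hsp90ab1 and Hspa8) and 0.891% of genes, and without chow 3 edgeR called 7 members and 3.81% of genes. Without chow 3 and S209A it called 4 members and 3.88% of genes. Over all 6 animals 6 members lay above 0 (49% of genes did) and 4 below, with a median of 0.24. The median was -0.08 without chow 1, 0.14 without chow 2, 0.15 without chow 3, 0.39 without keto 2 and 0.49 without S209A, so its sign depended on chow 1. Of the 10, 0 were called by either tool (0 at an unadjusted p under 0.05, beside 3.4% of genes), where edgeR called 0.0284% of genes.

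In keto animals the members had no such excess in the heavy pool. Hspa8 had 0.20 in keto 1 and -0.40 in keto 2. Hsp90ab1 had 0.01 and -0.52, and Hsp90aa1 had -0.33 and -0.58. The fitted value was above 0 for 3 members, as for 51.7% of genes. The median was -0.35, and it was 0.10 without keto 2.

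Hspd1 and St13 differed in direction between the keto animals: Hspd1 had -1.18 and 0.36, and St13 had -0.64 and 0.91. Hspe1 stayed above 0 in both, at 1.26 and 0.35. By edgeR 0 members were called in keto animals (2 at an unadjusted p under 0.05, beside 4.27% of genes, and 0 by DESeq2), where 0.18% of genes were called. Without keto 1 edgeR called Hspa1a and Hspa1b, where 0.0947% of genes were called, and those calls rest on the single keto 2 animal, assumed to vary like the other groups.

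S209A had all 10 members below 0, as did 50.9% of all genes in that animal. The values ran from -4.77 for Hspa1b and -1.95 for Hsph1 to -0.44 for St13. Each of the 10 was below all 3 chow animals, as were 25.7% of all genes. With 1 animal there is no replicate error behind these values.

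**Figure D2:**
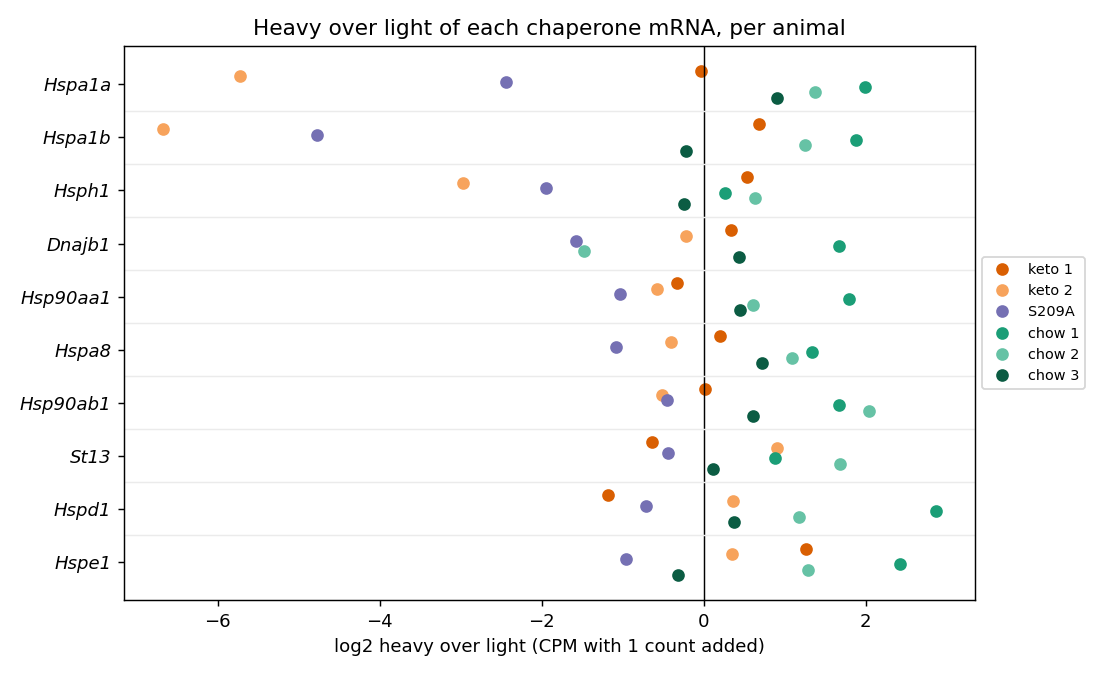
Heavy over light of each chaperone mRNA on the log2 scale (CPM with 1 count added), with 1 point per animal. The S209A point lies below 0 for every gene, the chow points lie mostly above 0, and keto 2 and S209A stand far to the left for Hspa1a, Hspa1b and Hsph1.

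The diets were compared as the difference of heavy over light, keto minus chow. All 10 members had a fitted difference below 0, while 54.3% of genes lay above 0. The members' median was -1.31 beside 0.15 over all genes. Of the 10 hepatocyte markers 0 lay above 0, with a median of -1.28, so low differences were not particular to the members. Without keto 2 the value was above 0 for 3 members, at 0.33 for Hsph1, 0.26 for Hspe1 and 0.10 for Dnajb1. Without chow 1 it was above 0 for Hspe1 (0.50) and Dnajb1 (0.55), and without either chow 2 or keto 1 it was above 0 for 1 member. With all animals it was -1.87 ± 0.61 for Hspd1, -1.69 ± 0.61 for Hsp90ab1 and -1.14 ± 0.58 for Hspa8 (± SE, 2 keto and 3 chow animals). It was near 0 for Hspe1 (-0.11 ± 0.77) and Dnajb1 (-0.18 ± 1.02).

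The differences of Hspa1a (-3.47 ± 1.02) and Hspa1b (-2.62 ± 0.77) depended on keto 2, and the keto minus chow value without it was -1.49 for Hspa1a and -0.27 for Hspa1b. Heavy over light in keto 1 and keto 2 was -0.03 and -5.73 for Hspa1a (SD 4.03). For Hspa1b it was 0.68 and -6.68 (SD 5.21). The ± SE of the fit therefore does not measure the spread between the keto animals for these genes. Both keto animals lay below all chow animals for 5 members (Hspa1a, Hspa8, Hsp90aa1, Hsp90ab1 and Hspd1), as they did for 11.5% of genes, with Hspd1 at 0.36 in keto 2 and 0.37 in chow 3. EdgeR called 0 members (6 at an unadjusted p under 0.05, beside 6.04% of genes, and 0 by DESeq2), where 0.189% of genes were called. Without chow 3 it called 4 members (Hspd1, Hsp90ab1, Hspa1a and Hspa1b) and 2% of genes, and without S209A as well 4 members and 2.11% of genes. Without keto 1, where keto 2 is the only keto animal and is assumed to vary like the other groups, it called Hspa1a and Hspa1b, with 0.189% of genes called. With both copies summed it called the sum, with 0.199% of genes called.

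In the heavy pools both keto animals lay below all 3 chow animals for 6 members (Hspa8, St13, Hsp90aa1, Hsp90ab1, Hspd1 and Hspe1), as they did for 13.5% of genes. They lay above all chow animals for 0 members and 14.9% of genes. The fitted log2 keto over chow was -2.36 ± 0.69 for Hsp90aa1, -2.21 ± 0.50 for Hspd1, -2.21 ± 0.52 for St13 and -1.86 ± 0.64 for Hsp90ab1 (± SE). It was -1.46 ± 0.66 for Hspa8 and -1.24 ± 0.58 for Hspe1. Dnajb1 (0.07 ± 0.79), Hspa1b (-0.25 ± 1.13), Hspa1a (-0.64 ± 1.16) and Hsph1 (-1.14 ± 0.75) had overlapping groups.

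The fitted value was above 0 for 1 member, Dnajb1, for 48.4% of genes and for 0 of 10 hepatocyte markers, whose median was -0.97. The median over the members was -1.35, beside -0.04 over all genes, and it was -2.36 without keto 1 and -0.83 without keto 2. EdgeR called 0 of the 10 members in the heavy pool, where 0% of 10552 genes were called. At an unadjusted p under 0.05 the counts were 5 members and 8.17% of genes. DESeq2 called 4 members (Hspd1, St13, Hsp90ab1 and Hsp90aa1) and 0.929% of genes. With no filter edgeR called 3 members and 0.758% of genes, and with the wording of the sample titles, which call chow 3 and S209A fed, as a term it called 2 members and 1.19%. With a replicate block it called 1 member and 0.829% of genes, and without chow 3 it called 1 member and 1.02%, in both cases Hspd1. The low heavy-pool values of Hspd1 and St13 were known when the members were listed.

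In the light pools the diets overlapped for 9 members. Hspa1a was the exception, with 11.1 and 9.90 CPM in keto and 3.83, 2.87 and 1.40 CPM in chow. Keto lay above all chow animals for 12.5% of genes, so 1 of 10 members is no excess. The sum of Hspa1a and Hspa1b was 35.1 and 29.3 CPM in keto and 12.5, 8.62 and 28.3 CPM in chow. In that sum keto 2 and chow 3, whose split between the copies differed, lay close together. Keto lay below all chow animals for 0 members and 13.1% of genes. The fitted log2 of Hspa1a was 1.98 ± 0.61, while that of Hspa1b was 0.64 ± 0.62. EdgeR and DESeq2 called 0 members (1 at an unadjusted p under 0.05 by edgeR, beside 6.07% of genes), where edgeR called 0% of 10551 genes. Values above 0 were fitted for 3 members and 44.1% of genes. The median of -0.53 was 0.20 without chow 3, -0.19 without keto 2, -0.83 without keto 1 and -0.85 without chow 1.

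**Figure D3:**
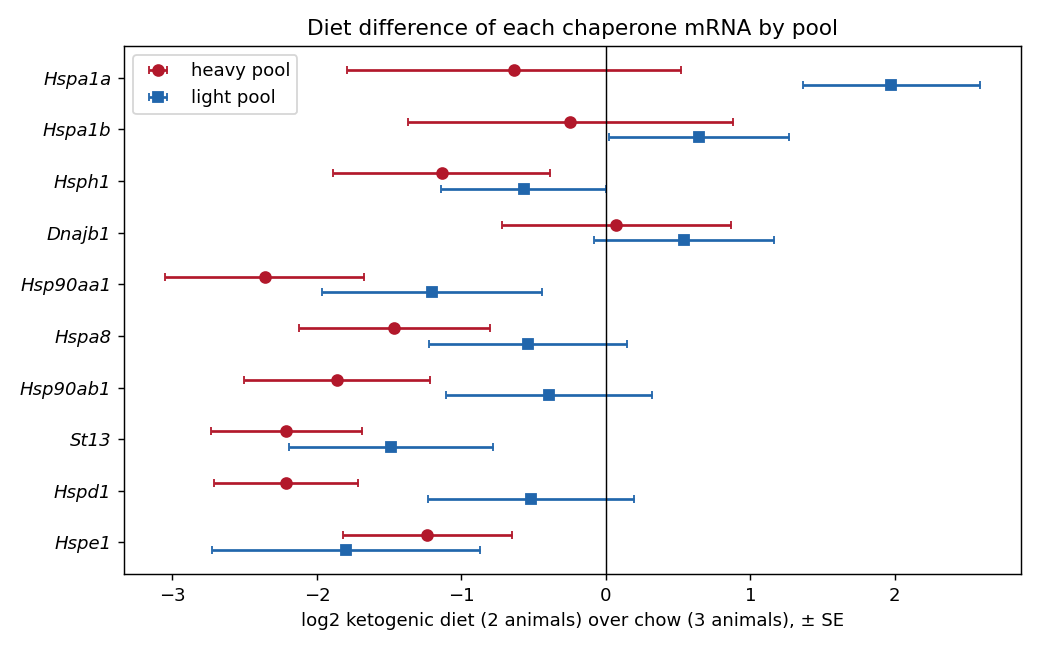
Fitted log2 ketogenic diet over chow for each chaperone mRNA, with red circles for heavy pools, blue squares for light pools and bars for ± SE (2 keto and 3 chow animals). Heavy-pool values of Hsp90aa1, Hspd1 and St13 lie beyond -2, and Hspa1a has the widest gap between pools, at -0.64 in heavy and 1.98 in light.

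S209A was set beside the chow range without a test. In the heavy pool 6 members lay below all chow animals (Hspa1a, Hspa1b, Hsph1, Hspa8, Hsp90ab1 and Hspd1) and 4 inside their range, where 19.4% of genes lay below. In the light pool 6 members lay above all chow animals (Hspa8, St13, Hsp90ab1, Hspd1, Hspe1 and Dnajb1), where 27.4% of genes lay above. Against chow 3 alone, the animal with the same aligner in its headers, the median log2 over the members was -1.41 in the heavy pool and 0.27 in the light pool. Against all chow animals the medians were -0.79 and 1.22, so the light-pool value was smaller against chow 3.

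Ratios between members of 1 library do not depend on its scaling. Hspa1a plus Hspa1b over Hspa8 had a log2 ratio of counts (1 added to each) of -1.42 and -7.93 in the keto heavy pools, -7.11 in the S209A heavy pool, and -1.54, -3.53 and -3.77 in the chow heavy pools. In the light pools it was -1.72 and -1.07 in keto, -3.67 in S209A, and -2.12, -3.75 and -2.92 in chow. Among light pools both keto animals had the highest ratios, and among heavy pools keto 1 was beside chow 1 while keto 2 was lowest. The mean heavy-pool difference of keto minus chow was -1.73, and it was 1.53 without keto 2 and -4.99 without keto 1, so that 1 animal sets its direction. It rests on a count of 0, and it was -0.95 with 3 counts added and -2.22 with 0.5 counts added. Without chow 1 it was -1.02.

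Hsp90aa1 over Hsp90ab1 was -3.47 and -3.58 in the keto heavy pools, -3.15 in the S209A heavy pool, and -3.12, -4.44 and -2.31 in the chow heavy pools. The keto values lay inside the chow range, so the inducible and the constitutive HSP90 mRNA were low together in keto heavy pools. Hspd1 over Hspe1 was 0.60 and 1.93 in the keto heavy pools, 1.44 in the S209A heavy pool, and 2.49, 2.27 and 1.80 in the chow heavy pools. Keto 1 was lowest in this ratio in the heavy pool and, at 3.04, highest in the light pool.

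**Figure D4:**
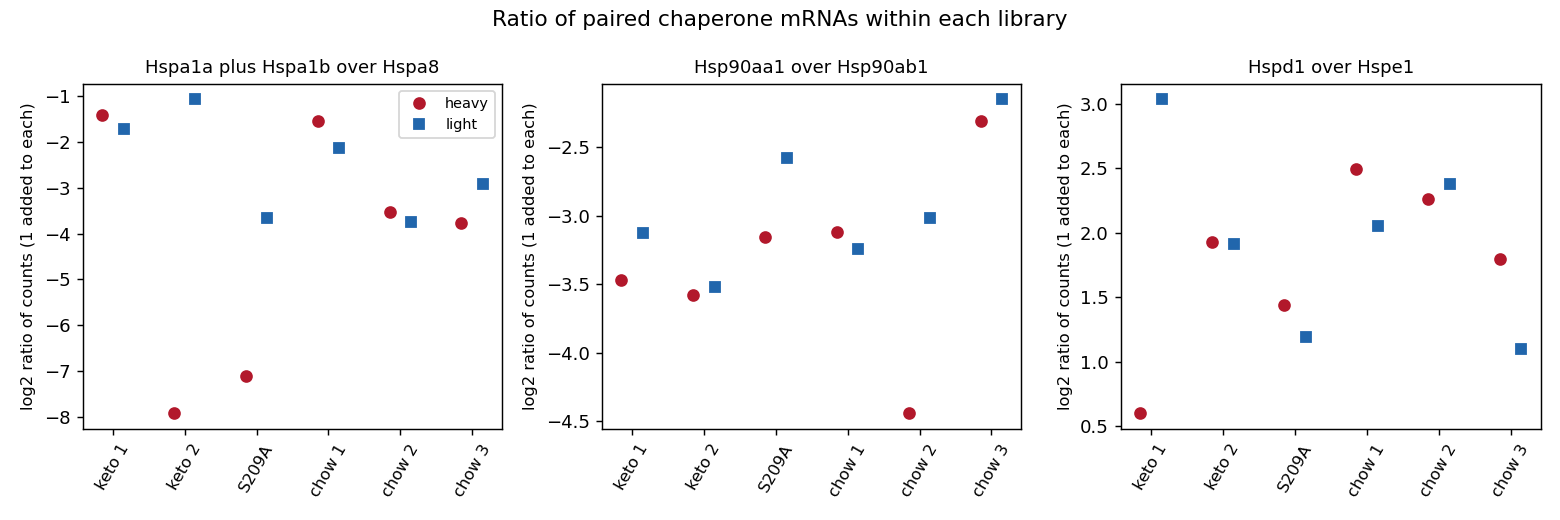
Log2 ratio of counts within each library (1 added to each count) for inducible over constitutive HSP70, inducible over constitutive HSP90, and barrel over lid of the mitochondrial chaperonin, with red circles for heavy pools and blue squares for light pools. Keto 2 and S209A heavy pools are lowest for HSP70, at -7.93 and -7.11, while their HSP90 ratios lie among the others.

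Across the 12 libraries the members fell into blocks, described by Pearson's r of log2 CPM over libraries that share animals and scaling. Hspa8, St13, Hsp90aa1, Hsp90ab1, Hspd1 and Hspe1 correlated with each other at 0.79 to 0.89. Hspa1b and Hsph1 correlated at 0.92, and at 0.44 without the heavy pools of keto 2 and S209A, so their likeness rests largely on those libraries. Without these 2 libraries Hspa8, St13, both HSP90 mRNAs, Hspd1 and Hspe1 correlated at 0.80 to 0.91. Dnajb1 stood apart.

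Of all 5056 genes compared, Cct2, a subunit of the cytosolic chaperonin TRiC, was most like Hspd1 (r = 0.96 over 12 libraries), followed by Ndufb3, Ddb1, Pqbp1 and Apom. Slc9a3r1 was most like the sum of Hspa1a and Hspa1b (r = 0.94), followed by Mavs, Rnase4, Hdlbp and Bag3. Without the heavy pools of keto 2 and S209A the value fell to 0.58 for Slc9a3r1 and to 0.03 for Bag3, an HSP70 co-chaperone.

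A further 76 chaperone and co-chaperone genes were listed, and 71 were tested. They were other HSP70 system genes, HSP90 co-chaperones, mitochondrial chaperones and proteases, TRiC and small heat shock proteins. Heat shock factors with a regulator (Hsf1, Hsf2 and Hsbp1) and chaperones of the endoplasmic reticulum were also listed. EdgeR called 0 of the 71 higher and 0 lower in each of the 6 comparisons, against the shares of all genes given above. At an unadjusted p under 0.05 it counted 1 gene in heavy over light of all animals, 8 in chow, 5 in keto and 7 in keto minus chow, and then 14 in the heavy and 2 in the light diet comparison. The shares of all genes were, in the same order, 3.4%, 6.96%, 4.27%, 6.04%, 8.17% and 6.07%. DESeq2 called Calr in heavy over light of chow, Calr and Hspa9 in keto over chow heavy pools, and 0 in the other 4 comparisons.

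In the comparisons within and between diets their medians had the sign of the members' medians and a smaller size. In heavy over light of chow animals the median was 0.31 and 50 of 71 were above 0, where 45.3% of all genes were. In keto the median was -0.30 with 23 above 0 (51.7% of all genes), and for keto minus chow -0.55 with 20 above 0 (54.3% of all genes). In the heavy pool the diet median was -0.49, with 19 above 0 (48.4% of all genes). Over all animals the median was -0.03 with 34 above 0 (49% of all genes). In the light pool the diet median was -0.08 with 28 above 0 (44.1% of all genes).

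Pdia6, a disulfide isomerase of the endoplasmic reticulum, had the largest values among genes averaging at least 50 counts in 2 diet comparisons, at -1.81 ± 0.64 for keto minus chow (edgeR adjusted p = 0.510) and -2.04 ± 0.60 in the heavy pool (edgeR adjusted p = 0.490). Hspa9, the mitochondrial HSP70, had -1.63 ± 0.58 for keto minus chow (edgeR adjusted p = 0.510). Calr, a lectin chaperone of glycoproteins, had -1.84 ± 0.58 in the heavy pool (edgeR adjusted p = 0.490, and 0.0291 by DESeq2). Cct2 (1.19 ± 0.53, edgeR adjusted p = 0.555) and the mitochondrial disaggregase Clpb (1.13 ± 0.55, edgeR adjusted p = 0.666) led heavy over light in chow. Over all animals Clpb (0.71 ± 0.42) and Cct2 (0.63 ± 0.38) led as well, both at an edgeR adjusted p = 0.998. In keto animals Pdia6 (-1.19 ± 0.51) and Dnajb11 (0.97 ± 0.55), a J-protein of the endoplasmic reticulum, had the largest values, both at an edgeR adjusted p = 1. In the light pool the J-proteins Dnajb6 (-1.62 ± 0.85, edgeR adjusted p = 0.799) and Dnajc7 (-0.99 ± 0.61, edgeR adjusted p = 0.811) had the largest diet values.

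A heavy-over-light value of -1 or lower in both keto 2 and S209A was found for 3 of the 10 members (Hspa1a, Hspa1b and Hsph1). These animals were picked because those members were low there, so the members' share is a description and no test. It was found for 6 of the 71 other chaperones (8.45%) and for 3.94% of all genes. The 6, named after their values were seen, were Bag3, Stip1, Sugt1, Chordc1, Pdia6 and Creld2. Stip1 and Chordc1 encode HSP90 co-chaperones, and Chordc1 had -2.23 in keto 2 and -2.17 in S209A. The keto 2 values rest on few counts in the heavy and light pools: 6 and 17 for Chordc1, 10 and 16 for Stip1, 0 and 9 for Sugt1, and 15 and 18 for Bag3.

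Other measures also differed between the animals, and not all of them in the order of the members. The median heavy over light of the 10 hepatocyte markers was -0.36 and -0.32 in keto, -0.36 in S209A, and 1.44, 0.91 and 0.24 in chow. Chow 1 was highest and chow 3 lowest of the chow animals, as for Hspa8 and Hspd1. The median of 8 nuclear RNAs was 0.74 and 0.26 in keto, 0.43 in S209A, and -2.49, -1.98 and -0.27 in chow. Mitochondrial ribosomal RNA took 47.3% and 74.2% of counts in the keto heavy pools, 12.6% in the S209A heavy pool, and 16.7%, 12.9% and 13.8% in the chow heavy pools. The median heavy over light of 5 erythroid markers was -2.04 and -2.05 in keto, -2.88 in S209A, and 0.74, -0.99 and -1.68 in chow. In the light pool all 5 erythroid markers had a fitted keto over chow value above 0 (44.1% of all genes did), with a median of 2.61. EdgeR called 0 of these markers (4 at an unadjusted p under 0.05, beside 6.07% of genes). The part of these measures in the chaperone values was not tested.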

How the data were processed

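RNA of heavy and light polysome pools from 6 mouse livers was measured by RNA sequencing. The deposited values are raw counts per gene ID, 1 table per library. Per the submitters' processing notes, the authors used Trimmomatic, HISAT2 and StringTie with build mm10. The headers name Bowtie2 for chow 1 and chow 2, HISAT2 for chow 3 and S209A, and no aligner for keto. The counting tool, its strand setting and its treatment of reads with several alignments stay without a source (not given in the sources used here), so Hspa1a and Hspa1b, and the overlapping Hspd1 and Hspe1, are uncertain. Per the labels' protocols, fractions 2 to 7 and 8 to 13 were pooled, libraries were made with a stranded kit (version 3) from 10 ng of RNA, and ERCC RNA was added. The labels do not say which range is heavy, and they give a time of 0 h where the protocol gives 24 h. The tables held 0 ERCC IDs and 0 unused sample columns, and 25275 of 27179 IDs matched RefSeq symbols of GRCm38.p6.

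Genes were kept by edgeR's filterByExpr (minimum 10 counts), which left 10555, and libraries were scaled by TMM (factors 0.324 to 3.12). One count was worth 0.0729 to 0.353 CPM. EdgeR 4.0.16 quasi-likelihood tests in R 4.3.3, two-sided, with Benjamini-Hochberg adjustment at 0.05, compared heavy with light in 1 fit of the 12 libraries, blocked by animal, and keto against chow within the 6 libraries of a pool. SE was obtained by dividing the size of the log2 value by the root of its F statistic. DESeq2 1.42.0, other scalings and filters, summed Hspa1 copies, blocks and left-out animals were the alternatives. The scripts were tested on simulated data.

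The heavy and light pool of an animal share its gradient by their labels, and their deviations correlated at r = 0.315, 0.290 and 0.458 in the chow animals and at 0.0621 in the keto animals across genes. Equal replicate numbers in keto and chow share only a number. Nothing states more of how the animals were kept apart, so p-values refer to these samples only, with the spread that the fit assigns to them. The fit shares that spread in part across genes. For Hspa1a and Hspa1b the ± SE is far smaller than the spread between the keto animals. The members and the other gene lists were chosen with earlier results of these data known. All 10 members are named. Of other chaperones, called genes were to be named and otherwise the 2 largest log2 values per comparison among genes averaging 50 counts or more, and the 5 genes most like Hspd1 and the Hspa1 sum.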

Additional observations from a re-analysis of the deposited data

Results flagged for a closer look

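Heavy over light (log2) lay on opposite sides of 0 in every animal of the groups compared for several members. The share of all genes that did so was not computed, so these items are descriptions only. Hspa1a averaged -2.88 in keto animals and 1.42 in chow animals, a difference of -4.30. Its keto values were -0.03 and -5.73, the second from 0 heavy counts with 1 added, and the fitted difference without keto 2 was -1.49. Hsp90aa1 averaged -0.46 in keto and 0.95 in chow, a difference of -1.40. For these 2 genes the difference between diets was not called by edgeR.

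The S209A animal lay below 0, and all chow animals above it, for 6 members. Of all genes 13.3% lay above 0 in all 3 chow animals and 50.9% lay below 0 in S209A. The share of genes with both was not computed. Its difference from the chow mean was -3.86 for Hspa1a, -2.13 for Hspa8, -1.98 for Hsp90aa1, -1.89 for Hsp90ab1, -2.18 for Hspd1 and -1.34 for St13. These differences were not tested, since the genotype has 1 animal.

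Of the 7 lists of other chaperones, 3 had medians on opposite sides of 0 in every animal of a comparison. The lists of other HSP70 system genes, HSP90 co-chaperones, small heat shock proteins and heat shock factors did not. Nor did TRiC in keto or the mitochondrial list in S209A. For mitochondrial chaperones and proteases the keto mean was -0.46 and the chow mean 0.39, a difference of -0.85. Chaperones of the endoplasmic reticulum differed by -0.58 in keto and by -0.66 in S209A from a chow mean of 0.26. The TRiC subunits differed by -1.10 in S209A from a chow mean of 0.60. The differences of list medians were not tested.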

How the results depend on the processing

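The alternatives that leave out S209A, alone or with chow 3 or keto 2, were chosen after seeing the data. Scaling by DESeq2's size factors moved no count of calls by more than 1.5 times and no member median by more than 1 SD between animals. None of the other named chaperones changed sign under it. Over all animals, edgeR called 3 genes in heavy over light, against 1 with nuclear protein-coding genes only, 15 with no filter, 0 at a mean of at least 50 counts, 12 by DESeq2, 0 with no replicate block, 6 without keto 2 and S209A, and 0 to 19 when 1 animal was left out. In chow the 24 genes became 13, 11, 0, 94 and 0 under the same first 5 settings, and 409 without chow 3 and S209A. Leaving out 1 animal gave 4 to 402 genes and 0 to 7 members called, where DESeq2 called 3 and the fit without chow 3 and S209A 4. In keto the 19 genes became 0 at a mean of at least 50 counts, 3 by DESeq2, 0 with no replicate block, 32 without chow 3 and S209A, and 7 to 33 with 1 animal left out. There the members called ran from 0 to 2 and their median from -0.46 to 0.10. For keto minus chow the 20 genes became 0, 10, 0 and 222 under the same settings and 0 to 211 with 1 animal left out. Members called there were 1 with Hspa1a and Hspa1b summed (the sum at -3.03, where 0.199% of genes were called), 4 without chow 3 and S209A, and 0 to 4 with 1 animal left out. In the heavy pool the 0 genes called became 2 with protein-coding genes only, 112 with no filter, 98 by DESeq2, 87 with a replicate block, 126 with the title wording as a term, and 0 to 108 with 1 animal left out. Members called there were 3, 4, 1 and 2 with no filter, DESeq2, the replicate block and the title wording, and 0 to 1 with 1 animal left out. The heavy median of -1.35 was -1.69 with the replicate block, -1.10 with the title wording, and -2.36 to -0.83 with 1 animal left out. In the light pool 0 genes became 39 with no filter and 5 with the replicate block. S209A medians against chow 3 alone were -1.41 in the heavy and 0.27 in the light pool. The cause of these changes was not tested, beyond the fewer animals or genes that some settings use. Of 996 values for single genes under the alternatives, 64 had the opposite sign and 40 moved by more than the spread between animals. Members or the Hspa1 sum were called 38 times and the other named chaperones 5 times. These counts do not measure stability, since a wide spread hides large moves and some settings left out animals outside the comparison. In keto the spread of Hspa1b was 5.21 (SD, n = 2), so its change from -1.67 to 0.69 without keto 2 was not among the 40. The replicate numbers of keto and chow did not pair the animals (r = -0.02 in heavy and -0.05 in light pools). Low counts limit Dnajb1, Hspa1a and the keto values of Hspe1.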
